A study of Homo sapiens with 3 samples.

Results

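The genes described here are 7 transcription factors that mark or steer cell identity in the prostate, namely FOXA1, FOXA2, HOXB13, SOX2, SOX9, REST and TP63. They were found by their symbols among the 25035 genes that appear in at least 1 of 3 deposited expression tables. Rows for FOXA1, FOXA2, SOX9 and REST are in each of the 3 tables, and HOXB13, SOX2 and TP63 are not listed in any of them. The set was put together with the response to the siRNAs in view, FOXA2 having been lower with either siRNA. The ratios to the control are therefore a description and carry no test.

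The data come from DU145, an established human prostate cancer line derived from a brain metastasis and known for growing without androgen. The cells received 75 nM of a negative control siRNA, of TSPAN18 siRNA 1 or of TSPAN18 siRNA 2, and RNA was taken after 48 h. TSPAN18 is a tetraspanin membrane protein that the study's title connects with bone metastasis through STIM1 and TRIM32. Each condition is 1 library, so a condition and its library cannot be told apart, and both siRNAs are set against the same control.

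FOXA1 and FOXA2 are closely related forkhead pioneer factors, proteins that can bind closed chromatin and open it. FOXA1 is known for its part in luminal cells, while FOXA2 is known from the developing prostate and from neuroendocrine prostate cancer. HOXB13 is the homeobox factor typical of the prostate lineage, and SOX2 and SOX9 are HMG-box factors linked to stem-like states, with SOX9 needed for growth of the prostate buds. REST silences neuronal genes outside the nervous system, and p63, the product of TP63, maintains basal epithelial cells.

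FOXA1 and FOXA2 are alike in part of their coding sequence. The most alike stretch of 120 bases holds 114 identical bases. The longest run shared by the coding sequences is 48 bases, shorter than a read of 100 bases. Whether reads were assigned to the wrong gene was not tested. The sources used here do not say how reads with several matches were counted.

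Levels are in CPM, counts scaled to a common library total and so a share of the library, and they could be turned back into whole read pairs. The control library held 30058731 pairs, that of siRNA 1 29913825 and that of siRNA 2 29766559, so 1 pair is worth 0.0333 to 0.0336 CPM. The targeted gene TSPAN18 checks the labels of control against TSPAN18 siRNA, but not which library is siRNA 1 and which is siRNA 2. The control library had 16.9 CPM of it, the siRNA 1 library 1.37 CPM and the siRNA 2 library 1.51 CPM. Of the lists of markers for cells that a pure line should not hold, 6 fibroblast genes summed to 4.15 to 7.85 CPM, of which COL1A1 was 3.18 to 7.25 CPM, 5 endothelial genes to 0.699 to 1.55 CPM and 5 haematopoietic genes to 0.368 to 1.36 CPM. The markers DCN, LUM, PTPRC, CD3E and HBB are not listed.

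FOXA2 was the member with the largest difference. It stood at 3.49 CPM in the control library (105 pairs, Poisson interval 2.86 to 4.23 CPM), at 1.24 CPM with siRNA 1 (37 pairs, 0.871 to 1.70) and at 1.01 CPM with siRNA 2 (30 pairs, 0.680 to 1.44). The control is high and both TSPAN18 siRNA libraries are low, with counting intervals that do not overlap that of the control. The siRNA 1 library held 35.4% of the control level (95% exact Clopper-Pearson interval 23.7 to 52.0) and the siRNA 2 library 28.9% (18.6 to 43.6). These intervals, like all others given here, express counting error alone. They leave out variation between cultures and treat PCR duplicates as if they were separate molecules. In bulk RNA, fewer FOXA2-positive cells and less FOXA2 RNA per cell cannot be told apart. Between the siRNAs FOXA2 was not distinguishable at this depth, since siRNA 2 held 81.5% of the siRNA 1 level with an interval of 48.6 to 136.

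On the log2(CPM + 1) scale, which understates differences of low genes, the FOXA2 ratios were −1.01 with siRNA 1 and −1.16 with siRNA 2. A rule of size, at least 2-fold on this scale, was used in place of a test. FOXA2 met it with both siRNAs, only just with siRNA 1, and no other listed member met it with either. Over the 14185 genes tested, those whose 3 libraries averaged 1 CPM or more, 4.21% were at least 2-fold lower with siRNA 1, 1.16% with siRNA 2 and 0.423% with both. As the members were chosen from this contrast, nothing is read from their count. With siRNA 1, 584 genes were lower than FOXA2 by this ratio, and with siRNA 2, 84 genes were.

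The call for FOXA2 depended on the processing. Its ratio was −0.93 with median-of-ratios scaling, −0.94 with TMM scaling and −0.72 after removal of the trend with GC content, all short of 2-fold, whereas the siRNA 2 ratio was past 2-fold in these settings at −1.16, −1.16 and −1.04. With a pseudocount of 5 CPM neither ratio reached 2-fold, at −0.45 for siRNA 1 and −0.50 for siRNA 2. The direction was lower with both siRNAs in each of these settings and with pseudocounts of 0.5 and 5 CPM.

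**Figure D1:**
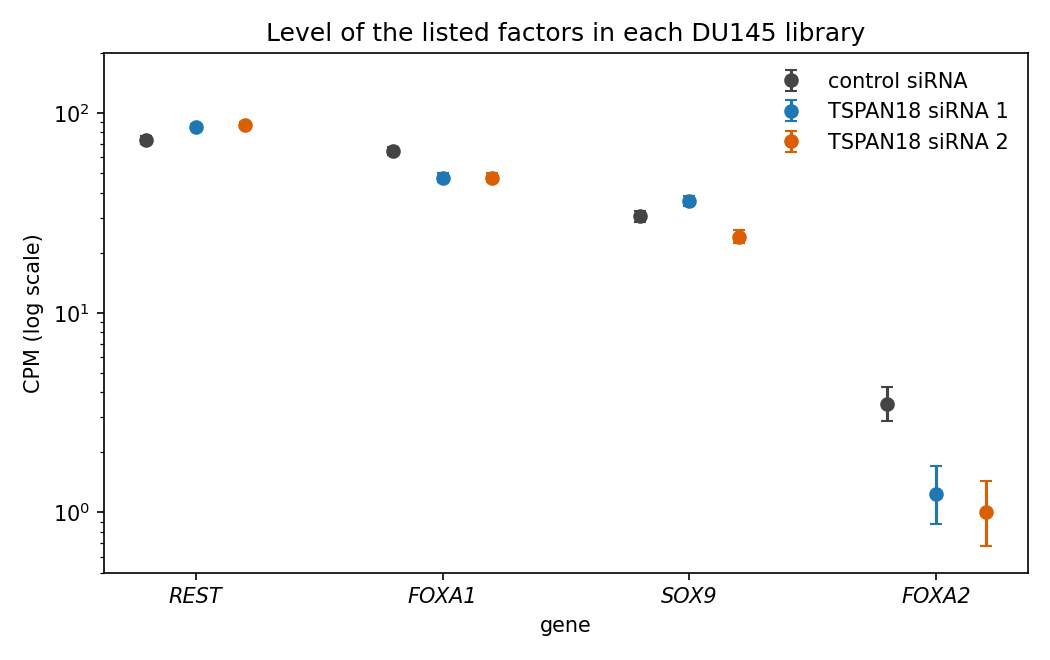
Level of the 4 listed members in each library, in CPM on a log axis; points are single libraries and bars are 95% Poisson counting intervals. FOXA2 goes from 3.49 CPM (control) to 1.24 CPM (siRNA 1) and 1.01 CPM (siRNA 2), while REST, FOXA1 and SOX9 lie between 24.1 and 87.1 CPM in every library.

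FOXA1, the other forkhead factor, was abundant and moderately lower. The control library had 64.5 CPM (1939 pairs), against 47.5 CPM for siRNA 1 (1420 pairs) and 47.4 CPM for siRNA 2 (1412 pairs). The control is again the highest library, and in CPM the siRNA libraries are level with each other. The siRNA 1 library held 73.6% of the control value (68.7 to 78.8) and the siRNA 2 library 73.5% (68.6 to 78.8), and siRNA 2 held 99.9% of siRNA 1 (92.8 to 108). The log2 ratios were −0.43 and −0.44. With the GC trend removed they were −0.27 and −0.39, so that the siRNA 1 ratio was smaller by over 1.5 times on the log2 scale. The log2 ratio of siRNA 2 to siRNA 1 for FOXA1, −0.0010, was −0.126 with median-of-ratios scaling, −0.111 with TMM scaling and −0.135 with the GC trend removed, each outside the counting interval of −0.106 to 0.104.

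Levels of different members were compared per kilobase of annotated exon, while orders of genes within lists are in CPM. In the control, FOXA1 was 12.1 times as high as FOXA2 on that scale (exact interval 9.92 to 14.8). The factor was 25.1 (18.1 to 35.8) in the siRNA 1 library and 30.8 (21.5 to 45.8) in the siRNA 2 library. FOXA1 thus outweighed FOXA2 in all 3 libraries, and by more in both siRNA libraries than in the control.

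REST, the repressor of neuronal genes, went the other way from the FOXA genes. Its level was 73.3 CPM (2203 pairs) in the control library, against 85.2 CPM (2550 pairs) for siRNA 1 and 87.1 CPM (2594 pairs) for siRNA 2. The control is the lowest library and the siRNA libraries lie close together. They held 116% (109.8 to 123) and 119% (112 to 126) of the control, and siRNA 2 held 102% of siRNA 1 (96.8 to 108). The log2 ratios of 0.22 and 0.25 were 0.12 and 0.093 after the GC trend was removed. The siRNA 1 ratio was larger under scaling, at 0.33 with median-of-ratios and 0.31 with TMM, while that of siRNA 2 was 0.23 and 0.24.

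SOX9 was the member on which the siRNAs disagreed. From 30.4 CPM (914 pairs) in the control library, the level was 36.3 CPM (1085 pairs) for siRNA 1 and 24.1 CPM (716 pairs) for siRNA 2. The siRNA 1 library is above the control and the siRNA 2 library below it, with no overlap of the 3 Poisson intervals. SOX9 was at 119% of the control with siRNA 1 (109 to 130.4) and at 79.1% with siRNA 2 (71.6 to 87.3). With the GC trend removed the siRNA 1 ratio was 0.41 on the log2 scale, against 0.25 before. Set against each other, siRNA 2 held 66.3% of the siRNA 1 level (60.3 to 72.9), a log2 ratio of −0.57, and 562 of the 14185 genes had a lower ratio between the siRNAs. No member was at least 2-fold apart between the siRNAs, against a background of 0.818% of genes lower and 2.85% higher with siRNA 2.

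**Figure D2:**
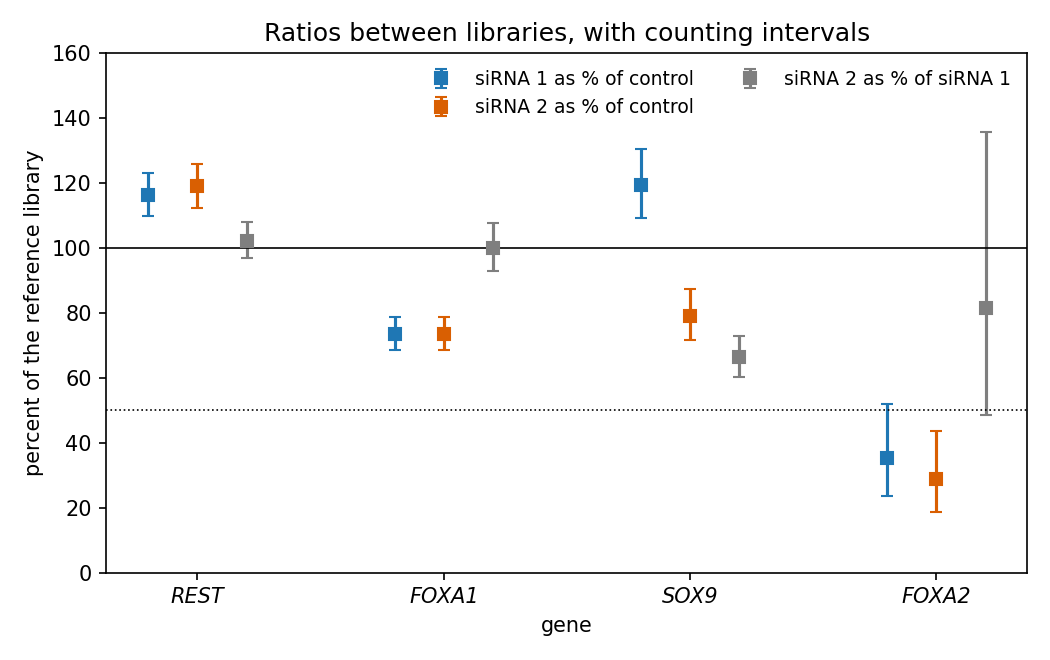
Each listed member as a percentage of a reference library, with exact 95% intervals for counting error; blue and orange squares take the control as reference and grey squares take siRNA 1. The solid line is 100% and the dotted line 50%. FOXA1 and REST are alike with both siRNAs, SOX9 lies on opposite sides of 100%, and FOXA2 is at 35.4% and 28.9%.

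Per kilobase of exon, the order in the control was FOXA1 at 16.2 CPM per kilobase (15.5 to 16.9), REST at 9.18 (8.80 to 9.57), SOX9 at 7.73 (7.23 to 8.24) and FOXA2 at 1.34 (1.10 to 1.62). The order was the same in the siRNA libraries. Taken as ratios, FOXA1 and REST lay closer together there than in the control, and SOX9 and FOXA2 further apart. With siRNA 1, FOXA1 was at 11.9 CPM per kilobase (11.3 to 12.6), REST at 10.7 (10.3 to 11.1), SOX9 at 9.22 (8.68 to 9.78) and FOXA2 at 0.475 (0.335 to 0.655). With siRNA 2, FOXA1 at 11.9 (11.3 to 12.6) and REST at 10.9 (10.5 to 11.3) overlapped within counting error. SOX9 was then at 6.11 (5.67 to 6.58) and FOXA2 at 0.387 (0.261 to 0.553). Exon lengths are from GENCODE 29 and may differ from the annotation the authors counted on.

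HOXB13, SOX2 and TP63 have no value. The tables list genes down to a single recovered read, and the sources used here do not say why a gene is not listed, so no level and no limit is stated for them. Genes tied to them were listed. In the HOXB cluster, which HOXB13 ends, HOXB9 was at 28.5, 29.5 and 32.8 CPM in the control, siRNA 1 and siRNA 2 libraries, and HOXB7 at 24.3, 26.8 and 25.2 CPM. The other tested HOXB genes were all below the control with siRNA 2, at log2 ratios of −0.39 to −0.98. With siRNA 1 they went both ways. Among 14 tested genes of the HOXB cluster and the MEIS and PBX partner families, none was 2-fold from the control with either siRNA. With both siRNAs, 8 were below and 2 above the control, against 37.7% and 29.3% of all genes. The medians of the 14 were −0.17 and −0.32, against −0.096 and 0.0090 over all genes. PBX2, which shares 15.1% of its exonic length with another gene, was at 101, 104 and 95.5 CPM, and PBX3 at 78.1, 67.9 and 58.9 CPM.

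A property that moved with the ratios was the GC content of the transcripts. Across 14163 genes, GC content and the log2 ratio had a Spearman's rho of −0.419 (siRNA 1) and −0.353 (siRNA 2), and the ratios share the control library. Genes are not independent replicates, and this is a description of the libraries. The members spread along this range. FOXA2 transcripts hold 58.2% GC, FOXA1 51.3%, SOX9 51.0% and REST 40.0%. At the GC content of FOXA2 the trend lay at −0.29 with siRNA 1 and −0.12 with siRNA 2, and at that of REST at 0.094 and 0.15. FOXA2 and FOXA1 lay below the trend with both siRNAs, REST slightly above it, and SOX9 above it with siRNA 1 and below it with siRNA 2. The part of GC content in the ratios was not tested.

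**Figure D3:**
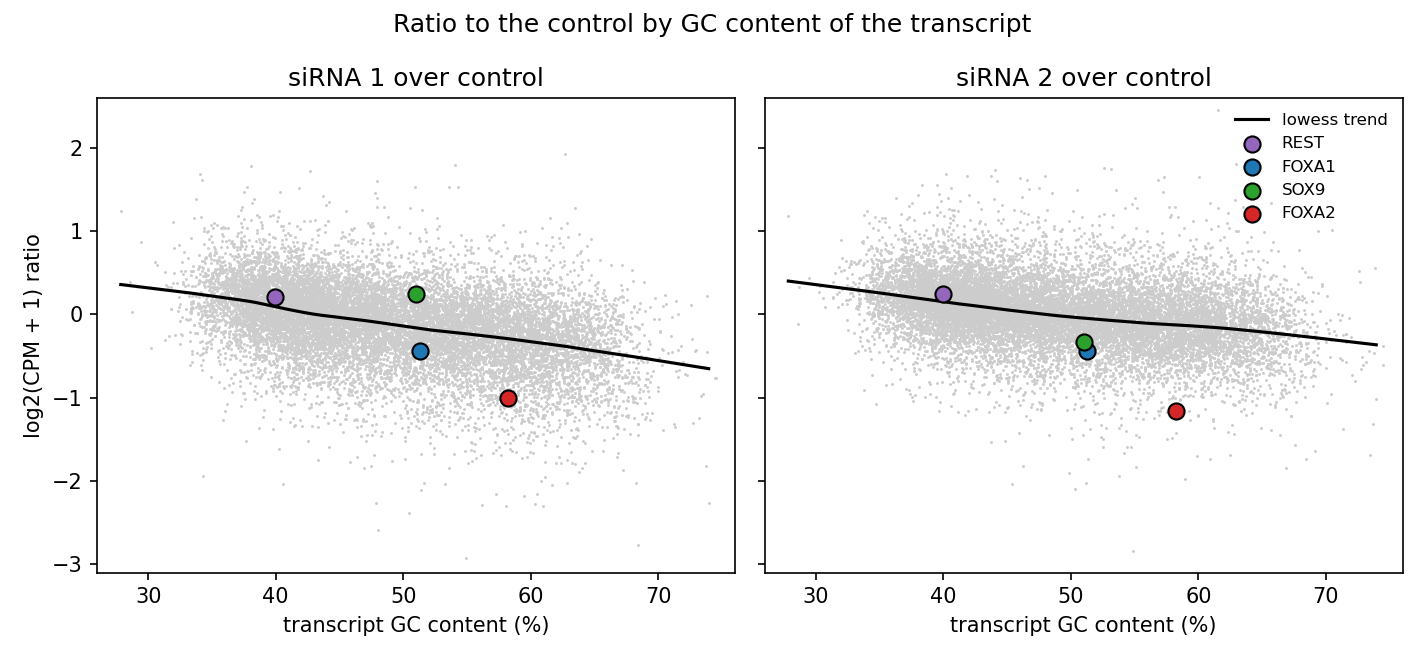
Log2(CPM + 1) ratio of each siRNA library to the control against GC content of the longest transcript, for all genes tested (grey) and the 4 listed members (coloured); the line is a lowess trend. FOXA2, at 58.2% GC, lies at −1.01 and −1.16, below a trend of −0.29 and −0.12.

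Short sequences in the 3′ UTR also went with single libraries. For each library, 7-base sequences held by at least 100 genes were ranked from these data with the GC trend removed. Genes with and without the sequence were compared by their level in that library relative to the other libraries. The score was the mean difference divided by its standard error, and the pair with the lowest scores was taken. A common sequence can therefore rank ahead of a rarer one whose genes lay lower. Written as DNA on the sense strand, 5′ to 3′, they were as follows. Genes holding one were lower on average in that library, which does not tell which single messages were low.
Control: CGGAGAA and TCGGAGA
siRNA 1: TTCACCA and TCACCAA
siRNA 2: TGGGTCA and GGGTCAA
Either sequence of the pair was present in 3.38% of 12051 tested genes with a 3′ UTR for the control, in 19.9% for siRNA 1 and in 12.3% for siRNA 2. The 2 sequences of a pair overlap each other by 6 bases. Genes holding one of the 6 differed from genes without it by a mean log2 value of −0.16 to −0.21 in that library, values that also chose the sequences. The 3′ UTRs of FOXA1 (1381 bases), FOXA2 (845 bases), SOX9 (2033 bases) and REST (3692 bases) hold 0 of them, in the transcript with the longest coding sequence. No match says only that these letters are not in those UTRs.

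Overlap with other genes was small for the members. FOXA2 shares 2.69% of its exonic length with AL121722.1, FOXA1 0.402% with TTC6 and REST 0.288% with NOA1, and SOX9 shares none. TTC6 was at 3.59, 2.64 and 3.86 CPM in the control, siRNA 1 and siRNA 2 libraries, and NOA1 at 32.0, 29.8 and 32.3 CPM. The log2 ratios of TTC6 were −0.34 with siRNA 1 and 0.083 with siRNA 2, and those of NOA1 −0.099 and 0.014. No value is given here for AL121722.1. Whether shared reads entered the ratios of the members was not tested.

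The 5 genes whose pair of ratios was nearest to that of FOXA2 were taken by Euclidean distance over the siRNA 1 and siRNA 2 ratios. Pseudogenes, clone-named loci and genes with noncoding RNA names such as LINC and MIR were left out. The 5 were TRAF1, KCTD12, PAK6, RNF208 and CYFIP2, at distances of 0.0410 to 0.0790 on the log2 scale. TRAF1, an adaptor of TNF receptor signalling, was at 36.4, 18.0 and 16.1 CPM in the control, siRNA 1 and siRNA 2 libraries. KCTD12 was at 10.5, 4.55 and 4.10 CPM. The added 1 CPM shrinks the ratios of a low gene such as FOXA2 more than theirs. In CPM alone, TRAF1 and KCTD12 were lower by smaller factors than FOXA2, which was at 35.4% and 28.9% of the control. PAK6, a serine/threonine kinase, was near FOXA2 in level as well as in ratio at 3.19, 1.00 and 0.907 CPM. This likeness rests on 3 libraries.

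**Figure D4:**
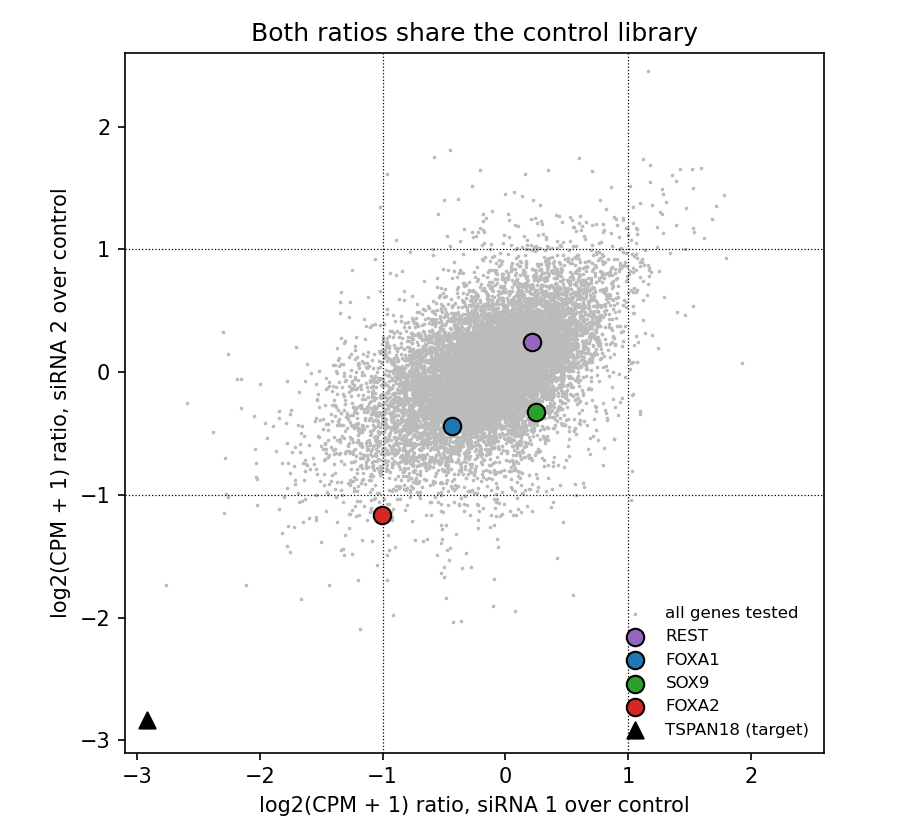
Log2(CPM + 1) ratio to the control with siRNA 1 (x axis) and siRNA 2 (y axis); grey points are 14185 genes, coloured points the listed members, the triangle TSPAN18, and dotted lines 2-fold. Both axes share the control library. FOXA2 lies just past both lines on the lower side at −1.01 and −1.16, and SOX9 is the member with ratios of opposite sign.

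Genes of the pathways these factors belong to were taken from lists and are given as counts, beside a background over all genes. In that background, 4.21% were at least 2-fold lower with siRNA 1, 1.16% with siRNA 2 and 0.423% with both. At least 2-fold higher were 0.677% with siRNA 1, 1.10% with siRNA 2 and 0.261% with both. With both siRNAs, 37.7% were below and 29.3% above the control. Over all genes the log2 ratio had a median of −0.096 (siRNA 1) and 0.0090 (siRNA 2). Median-of-ratios scaling moves the first to 0.0054 and changes the split of siRNA 1 calls from 96 higher and 597 lower to 153 higher and 432 lower. Medians of lists are to be read against those of all genes.

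Of 23 genes of the luminal program, the setting of FOXA1 and HOXB13, 13 were tested. The luminal secretory genes KLK2 and KLK3 and the protease gene TMPRSS2 are not listed. None was at least 2-fold from the control in the same direction with both siRNAs, 2 were at least 2-fold lower with siRNA 1, and 7 were below and 2 above the control with both. The medians were −0.33 and −0.12. The luminal keratins were the highest in the control library, KRT8 at 464, 417 and 384 CPM, KRT19 at 241, 193 and 193 CPM and KRT18 at 175, 139.6 and 161 CPM. KRT8 and KRT18 have many processed pseudogenes and share 7.63% and 16.3% of exonic length, so their values are uncertain. FKBP5, a chaperone induced by steroid receptors, was above the control at 132, 224 and 173 CPM. In CPM, which is not corrected for transcript length, it was above KRT18 with both siRNAs and KRT19 with siRNA 1. Such an order does not rank the genes by level.

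Of 19 basal prostate genes, the setting of p63, 13 were tested, 9 of them below and 1 above the control with both siRNAs, with medians of −0.36 and −0.26. At least 2-fold lower were 2 with siRNA 1 and 1 with siRNA 2. The basal keratins KRT5 and KRT14 are not listed, nor is TP63. ITGB4, the hemidesmosome integrin, was the list's 1 gene at least 2-fold lower with both, at 61.6, 28.9 and 29.7 CPM. The most abundant were LAMB3 at 983, 736 and 846 CPM, DST at 979.5, 1219.5 and 913.9 CPM, EGFR at 498, 371 and 416 CPM and ITGA6 at 209, 219 and 183 CPM. PERP, which p63 is known to activate and which was named after its values were seen, stood on the other side at 41.9, 72.2 and 80.8 CPM.

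The neuroendocrine list, the setting of FOXA2 and SOX2, was mostly at low levels. Of 24 genes, 10 are not listed, among them the drivers INSM1 and NEUROD1, and 6 were tested. Of the defining secretory markers, SYP was at 0.333, 0.769 and 0.571 CPM, and CHGB was lower than SYP in CPM in every library. Among the tested genes UCHL1, a neuronal ubiquitin hydrolase, was at 966, 994 and 1147 CPM, NKX2-1 at 110.5, 95.5 and 87.6 CPM and ENO2, neuron-specific enolase, at 40.7, 26.6 and 32.1 CPM. NKX2-1 shares 12.7% of its exonic length with antisense and neighbouring genes. STMN1, a regulator of microtubules, was at 220.2, 290.3 and 193.9 CPM. None was 2-fold from the control with both siRNAs, 1 was at least 2-fold lower with siRNA 1, and the medians were −0.40 and −0.26.

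REST acts through corepressors, of which 20 of 22 listed here were tested and 0 were 2-fold from the control with either siRNA. Their medians of 0.058 and 0.026 were close to 0, with 4 below and 7 above the control with both. KDM1A, the histone demethylase of the CoREST complex, was at 165, 144.5 and 136 CPM and SIN3A, the scaffold of the other REST complex, at 159, 183 and 159 CPM. KDM5C, a further demethylase, was at 137, 164 and 173 CPM and USP7, a deubiquitinase that stabilises REST, at 168, 176 and 156 CPM.

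Of 35 neuronal genes often given as REST targets, 16 were tested. In all, 11 of the 16 were below the control with both siRNAs and 0 above it, with medians of −0.33 and −0.24, and 0 were 2-fold lower with both. With siRNA 1, 3 were at least 2-fold lower, and with siRNA 2, 1 was. CELSR3, an adhesion receptor, was at 27.4, 23.9 and 32.5 CPM, BDNF, a neurotrophin, at 26.4, 29.02 and 16.6 CPM, MAPK8IP1, a JNK scaffold, at 18.1, 6.28 and 14.8 CPM and STMN3 at 15.6, 10.7 and 6.55 CPM. MAPK8IP1 shares 11.7% of its exonic length with another gene. Whether REST binds any of these genes in DU145 is not measured here.

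Other members of the protein families were compared as well. Of 39 further FOX genes 19 were tested, with medians of −0.15 and 0.11, 2 of them at least 2-fold lower and 2 higher with siRNA 1 and 1 in each direction with siRNA 2. FOXP4 was the 1 gene at least 2-fold higher with both siRNAs, at 44.3, 96.2 and 116.5 CPM. None of those tested was 2-fold lower with both, a rule that FOXA2 met only just with siRNA 1. Of the 19 tested FOX genes, 7 were below and 6 above the control with both siRNAs, against 37.7% and 29.3% of all genes. FOXD1, named after its values were seen, was at 36.8, 20.6 and 16.8 CPM, with log2 ratios of −0.80 and −1.09. FOXJ1, also named afterwards and below the filter, was at 0.832, 0.234 and 0.202 CPM. FOXM1, a factor of dividing cells, was the most abundant in the control at 220.0, 198 and 153 CPM, followed by FOXK2 at 132, 162 and 143 CPM. They share 15.9% and 14.1% of exonic length with other genes. FOXK1 was at 75.2, 67.9 and 86.7 CPM and FOXN2 at 55.8, 73.2 and 65.5 CPM. FOXA3, the third FOXA gene, named after its values were seen, was below the filter at 0.798, 0.301 and 0.840 CPM. Of 17 further SOX genes 5 were tested and 0 were 2-fold from the control, with medians of −0.059 and 0.034. SOX12 was at 50.6, 55.0 and 64.6 CPM, SOX13 at 28.2, 27.0 and 31.0 CPM, SOX4 at 14.7, 8.52 and 11.2 CPM and SOX15 at 5.59, 6.85 and 5.74 CPM.

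**Figure D5:**
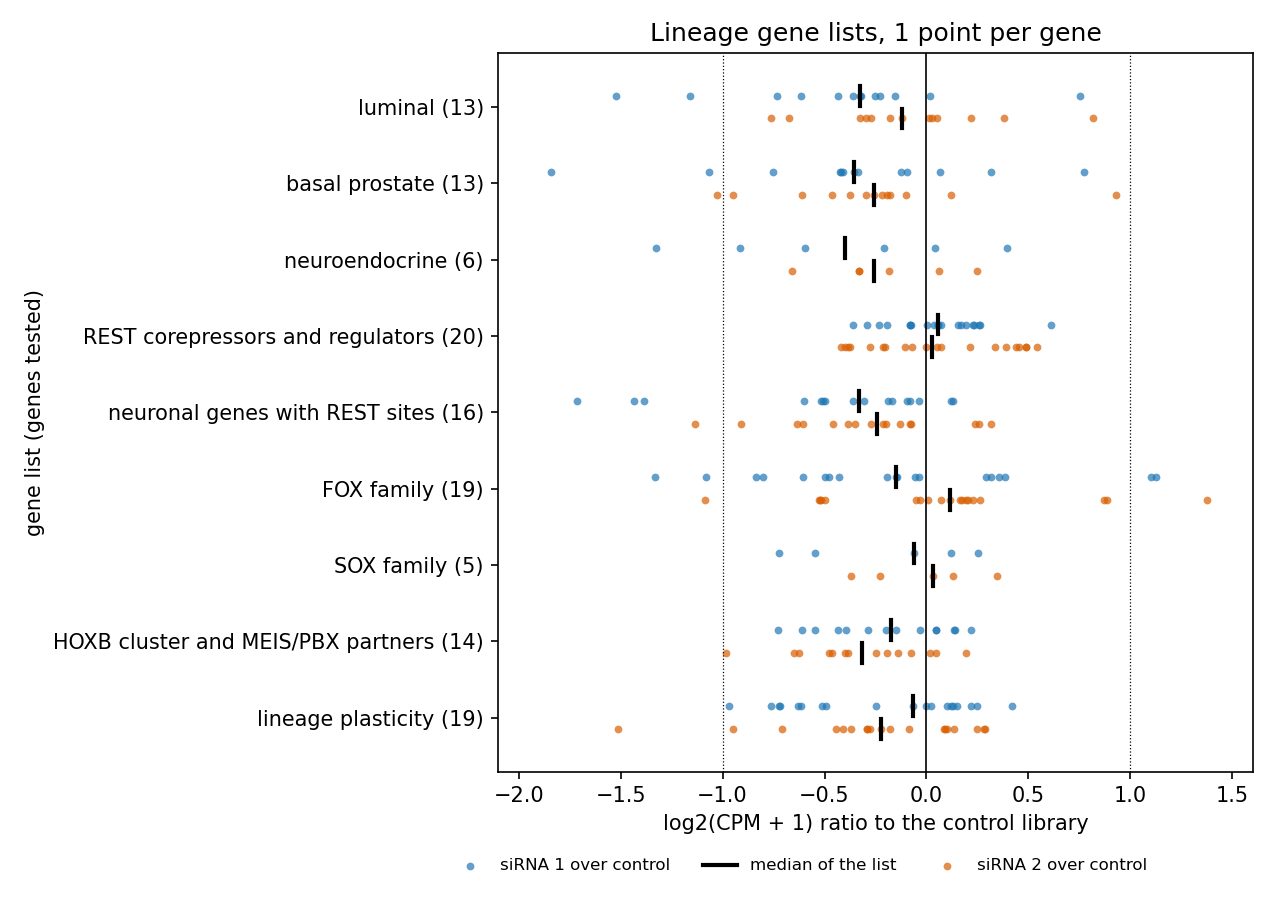
Log2(CPM + 1) ratio to the control of each tested gene in 9 lineage lists, with siRNA 1 in blue and siRNA 2 in orange; black bars are list medians, dotted lines 2-fold, and the number of genes tested is beside each name. The REST corepressors lie near 0 with medians of 0.058 and 0.026, and the neuronal genes at −0.33 and −0.24.

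Of 19 tested genes of lineage plasticity 1 was at least 2-fold lower with siRNA 2 and 0 with siRNA 1. The most abundant in the control were DNMT1 at 623, 622 and 510 CPM, TRIM28 at 402, 244 and 295 CPM, ID1 at 260.2, 153 and 223 CPM and AURKA at 246, 249.8 and 217.5 CPM.

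A fit over all genes can be made only by taking the pair of siRNA libraries as 1 group against the lone control, which is assumed to vary like them. Limma called 0 of 14185 genes at an adjusted p of 0.05 (691 had an unadjusted p below 0.05), edgeR's quasi-likelihood test on recovered pairs called 0 (770 unadjusted) and DESeq2 called 13, 10 higher and 3 lower. No p-value is given for the members, which were chosen from this contrast.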

How the data were processed

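RNA of 3 DU145 libraries was analysed, 1 per siRNA. The submitters' processing notes name HTSeq 0.6.1, HISAT2 2.1.0 and bcl2fastq 2.19.1, with hg19 as the build. The annotation release and strand setting are not stated there. The authors' deposited tables hold 1 CPM value per gene. In each library 100% of values were whole multiples of the smallest (tolerance 0.001 read), and all but those at 1 read were even, so read pairs were recovered.

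Genes in all 3 tables (22773) with a mean of at least 1 CPM were kept (14185). Ratios are log2(CPM + 1), with 2-fold as a rule of size, since each condition has 1 library. Limma 3.58.1, edgeR 4.0.16 and DESeq2 1.42.0 (R 4.3.3) gave counts over all genes only. Scripts were tested on simulated data. GENCODE 29 (GRCh38, not the authors' build) gave GC content for 99.8% of tested genes, exon lengths, overlaps and sequences, matched by identifier, without coordinates. The lowess fraction was 0.3.

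Some listed items, with 1 of the lists, are not reported here. The members and the gene lists were chosen with earlier results of these data known. Named are all members, the 4 highest tested genes of each list and genes 2-fold from the control with both siRNAs. The 5 genes nearest to a 2-fold member are named too, without pseudogenes, clone-named loci and noncoding RNA names. Alternatives were pseudocounts, scaling, GC trend, filter, threshold and tool. Python 3.11.15, scipy 1.17.1 and statsmodels 0.14.6 were used.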

Additional observations from a re-analysis of the deposited data

Results flagged for a closer look

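Members or named genes that lay above the control with 1 siRNA and below it with the other, with counting intervals of both ratios clear of 100%, are given with their log2(CPM + 1) ratios. The difference was not tested, as each siRNA has 1 library. SOX9 was at 0.25 with siRNA 1 and −0.33 with siRNA 2, in the same directions under both scalings and with the GC trend removed. DST was at 0.32 and −0.10, ITGA6 at 0.067 and −0.19, STMN1 at 0.40 and −0.18, and USP7 at 0.074 and −0.11. CELSR3 was at −0.19 and 0.24 and FOXK1 at −0.14 and 0.20.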

How the results depend on the processing

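FOXA2 was lower with both siRNAs in every setting run. This direction was known when the set was chosen, and neither the pseudocounts nor the scalings could have reversed it, so it is no support. With a pseudocount of 5 CPM its log2 ratios were −0.45 and −0.50. The number of members at least 2-fold lower with both siRNAs was 1, and 0 with that pseudocount, with median-of-ratios scaling, with TMM scaling and with the GC trend removed. The ratio of REST between the siRNAs, 0.031, was −0.094 with median-of-ratios scaling, −0.079 with TMM scaling and −0.034 with the GC trend removed. All other member ratios kept their sign in the settings run.

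Counts over all genes moved more. With a pseudocount of 5 CPM, 178 genes were lower and 50 higher with siRNA 1 (597 and 96 in the main setting), 66 lower and 59 higher with siRNA 2 (164 and 156), and 13 lower and 21 higher with both (60 and 37). A pseudocount of 0.5 CPM gave 94 lower with both. Median-of-ratios scaling gave 153 higher with siRNA 1. Removal of the GC trend gave 285 lower with siRNA 1 and 27 with both. A 1.5-fold threshold gave 2141 lower and 629 higher with siRNA 1, 938 and 900 with siRNA 2, and 491 and 278 with both. DESeq2 called 13 genes, and limma and edgeR 0. The causes were not tested, apart from the threshold and the pseudocount, which act on the count by construction.

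No paired analysis was possible because each group holds 1 library, and for the same reason no replicate was left out. Depth limits FOXA2 most, with 30 to 105 pairs, against 716 or more for the other listed members.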
